A study of Mus musculus with 8 samples.

Results

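The 778 genomic sites described here are places where a CHD4 ChIP-seq peak was called in both libraries titled TBX5 KO and in neither library titled control. Peaks of the 4 ChIP libraries were joined into sites wherever they overlapped by at least 1 bp, and a site took the set of libraries in which it was called. The 778 sites, named TBX5 KO-only sites here, were 0.648% of the 120047 autosomal sites. They were 1.93% of the 40311 autosomal sites called in both TBX5 KO libraries. A further 1 site of the same pattern lay on a sex chromosome and was left out. Since the calls chose the sites, their number, their strength and their absence from the control lists are given as a description, without a test.

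CHD4 is the motor subunit of NuRD, a complex that joins ATP-driven nucleosome remodelling to histone deacetylation, and in heart muscle it is known for keeping genes of other muscle types silent. TBX5 is a T-box transcription factor needed for heart formation and for the gene expression of atrial cardiomyocytes. A ChIP-seq peak marks a place where DNA fragments pulled down with the antibody pile up above the local background, and a place without a called peak can still carry the protein below the threshold.

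The TBX5 KO group had 2 CHD4 ChIP libraries from atria of Tbx5 flox/flox mice that received AAV9:Nppa-Cre on postnatal day 2. The control group had 2 CHD4 ChIP libraries from mice with the same floxed alleles that received AAV9:Nppa-EGFP on the same day. Cre recombinase excises floxed DNA, EGFP is a fluorescent protein, and Nppa, whose sequence drives both vectors, is a gene of atrial cardiomyocytes. The tissue was right and left atria with the cell type given as mixed, so the cells that the Nppa vectors do not address are also in the sample. In such bulk tissue, fewer cells of a type and less CHD4 per cell cannot be told apart. The sources used here give neither the age at dissection nor whether replicates are separate animals or pools, and the spread between libraries may therefore be technical. Groups follow the titles. The genotype and treatment fields of the same libraries give the opposite groups, and the treatment text names CHD4 as the gene removed by Cre, so each direction rests on the titles. A CHD4 peak at Tbx5 measures neither its expression nor its deletion and cannot check them.

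The lists held 61173 and 69557 peaks in the TBX5 KO libraries, against 99924 and 91520 peaks in the control libraries. Read totals are not in the lists. The fold and p-value of a peak together give the number of fragments at its summit (its pileup) and its local background. The library background, taken as the lower quartile of the local background over all peaks, was 10.7 and 13.4 fragments in the TBX5 KO libraries, against 10.1 and 10.3 fragments in the control libraries. At that background the smallest pileup called was 22 and 26 fragments in TBX5 KO, against 21 and 21 fragments in control. Expressed over the background, the call limit was 2.06 and 1.94 in TBX5 KO, against 2.08 and 2.04 in control, so the limits differed by little. Values for single libraries below come in the order of the replicate numbers 1 and 2, and site coordinates are those of build mm10.

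At 35 of the TBX5 KO-only sites the site overlapped a promoter window, defined as 250 bases before to 50 bases after a RefSeq transcription start. The promoters of the 4 strongest such sites at protein-coding genes are printed because they show where in a promoter the calls lay and how the bases there are composed. The windows come from RefSeq on GRCm38.p6, the assembly behind the mm10 build of the lists, and capitals mark the bases inside the peaks of both TBX5 KO libraries.
Kcnh6, chr11:106007898-106008197, plus strand: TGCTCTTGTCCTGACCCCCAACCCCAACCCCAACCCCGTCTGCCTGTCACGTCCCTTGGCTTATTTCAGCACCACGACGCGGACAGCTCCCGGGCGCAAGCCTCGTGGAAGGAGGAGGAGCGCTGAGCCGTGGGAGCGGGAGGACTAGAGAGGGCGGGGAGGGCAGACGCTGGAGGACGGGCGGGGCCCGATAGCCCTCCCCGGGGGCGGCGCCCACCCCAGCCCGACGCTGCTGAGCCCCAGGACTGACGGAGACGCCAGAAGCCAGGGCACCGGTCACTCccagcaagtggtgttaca
Khdrbs2, chr1:32172472-32172771, plus strand: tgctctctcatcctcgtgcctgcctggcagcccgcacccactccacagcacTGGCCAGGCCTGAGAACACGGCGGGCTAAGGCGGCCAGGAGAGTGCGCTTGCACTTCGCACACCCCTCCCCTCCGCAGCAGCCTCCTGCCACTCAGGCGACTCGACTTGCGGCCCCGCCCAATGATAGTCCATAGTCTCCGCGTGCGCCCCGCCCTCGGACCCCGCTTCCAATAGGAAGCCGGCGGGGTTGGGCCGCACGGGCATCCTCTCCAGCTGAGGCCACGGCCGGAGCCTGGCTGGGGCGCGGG
Stxbp2, chr8:3630859-3631158, plus strand: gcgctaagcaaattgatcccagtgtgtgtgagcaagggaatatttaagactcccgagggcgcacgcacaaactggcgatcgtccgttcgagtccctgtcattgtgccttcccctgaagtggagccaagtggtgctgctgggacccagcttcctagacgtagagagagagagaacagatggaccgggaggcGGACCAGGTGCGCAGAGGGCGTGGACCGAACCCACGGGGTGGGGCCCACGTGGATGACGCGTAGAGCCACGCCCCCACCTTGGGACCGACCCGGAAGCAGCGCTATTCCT
Plekhh1, chr12:79028913-79029212, plus strand: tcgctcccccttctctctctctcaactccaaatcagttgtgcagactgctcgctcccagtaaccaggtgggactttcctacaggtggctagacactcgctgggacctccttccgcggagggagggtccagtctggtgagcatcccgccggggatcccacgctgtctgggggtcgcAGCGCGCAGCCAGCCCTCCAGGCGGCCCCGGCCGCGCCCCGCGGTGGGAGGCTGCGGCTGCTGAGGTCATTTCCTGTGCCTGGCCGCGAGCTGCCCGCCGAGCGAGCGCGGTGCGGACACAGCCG
Kcnh6 encodes a voltage-gated potassium channel of the ERG type, Khdrbs2 an RNA-binding splicing regulator, Stxbp2 a syntaxin-binding protein of granule exocytosis and Plekhh1 a protein with pleckstrin homology domains. Both TBX5 KO peaks covered 282 of the bases at Kcnh6, 249 at Khdrbs2, 110 at Stxbp2 and 125 at Plekhh1. The GC content was 69.3%, 70.3%, 61.3% and 69.0% in the same order, and the windows held 24, 26, 22 and 27 CpG dinucleotides. Each of the 4 therefore lay above the median of the 31396 autosomal promoters of the table, which was 53% GC and 7 CpG.

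The summits lay close to the transcription start. They were 147 and 115 bases before it at Kcnh6, 48 and 14 bases before it at Khdrbs2, and 71 and 80 bases after it at Stxbp2. At Plekhh1 the 2 libraries placed the summit on different sides of the start, 123 bases after it and 88 bases before it. None of the 4 windows held the T-box letters GGTGTGA, the GATA letters AGATAA or the AP-1 letters TGANTCA on either strand. Over the 39 windows of the 35 sites, 28 of protein-coding genes and 11 of long non-coding RNAs, GGTGTGA was in 2 (5.13%), AGATAA in 4 (10.3%) and TGANTCA in 5 (12.8%). Of all autosomal promoters of the table, 1255 held GGTGTGA, 3501 (11.2%) AGATAA and 2463 (7.85%) TGANTCA, and the 39 windows are too few to separate these shares. A match is a description of letters and not a binding site.

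The TBX5 KO-only sites were weak members of their own lists. The percentile of −log10 p of a site in its list, where 0 is the weakest peak, had a median of 21.9 in TBX5 KO 1, with quartiles of 11.4 and 36.6. In TBX5 KO 2 the median was 26.2, with quartiles of 12.5 and 41.0. The mean of the 2 library medians was 24.0 ± 3.01 (SD, n = 2). Sites called in all 4 libraries stood far higher in the same lists, at medians of 66.1 in TBX5 KO 1 and 70.5 in TBX5 KO 2. Of the 778 sites, 22 (2.83%) were in the upper part of both TBX5 KO lists, above percentile 50, and 220 (28.3%) were at or under percentile 25 in both. Above percentile 75 there was 1 site in TBX5 KO 1 and 3 in TBX5 KO 2, and 0 in both lists at once, which allows a share of up to 0.386%. Above percentile 90 there were 0 sites in either list.

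In fragments, a typical TBX5 KO-only site had a small excess over background. The median pileup was 28 fragments in TBX5 KO 1 and 34 in TBX5 KO 2, which is 2.62 and 2.54 times the library background. The deposited fold over the local background had medians of 2.40 and 2.29. The peaks were also narrow, with median widths of 337 bp and 367 bp, and the joined sites had a median width of 500 bp (range 263 to 2282 bp). Sites called in all 4 libraries were 1486 bp wide in the median, with 41 and 51 fragments in the TBX5 KO libraries, against 63 and 60 fragments in the control libraries.

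Both TBX5 KO libraries put their summits near each other at most sites but ranked the sites differently. The summits were within 250 bp at 630 sites (81.0%) and within 50 bp at 214, with a median distance of 113 bp. Across the 778 sites the Spearman correlation of the 2 percentiles was 0.183, and across the 37678 sites called in all 4 libraries it was 0.833. The sets differ in their range of percentiles. Both values are descriptions across sites of the same libraries, without a test.

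TBX5 KO-only sites stood only a little above the limit at which a peak was called. Of the 769 sites outside high local background, 756 (98.3%) were above the call limits of both control lists in both TBX5 KO libraries, a share that the choice of sites nearly fixes, since the TBX5 KO limits they had to pass are close to the control ones. The mean pileup over background in TBX5 KO, divided by the mean control limit of 2.06, had a median of 1.26, quartiles of 1.19 and 1.36 and a highest value of 1.999. At 56 sites (7.28%) it reached 1.5. The control limit applies at the library background, and control local background at an uncalled site is not in the lists, so the control level at these sites is bounded only roughly.

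**Figure D1:**
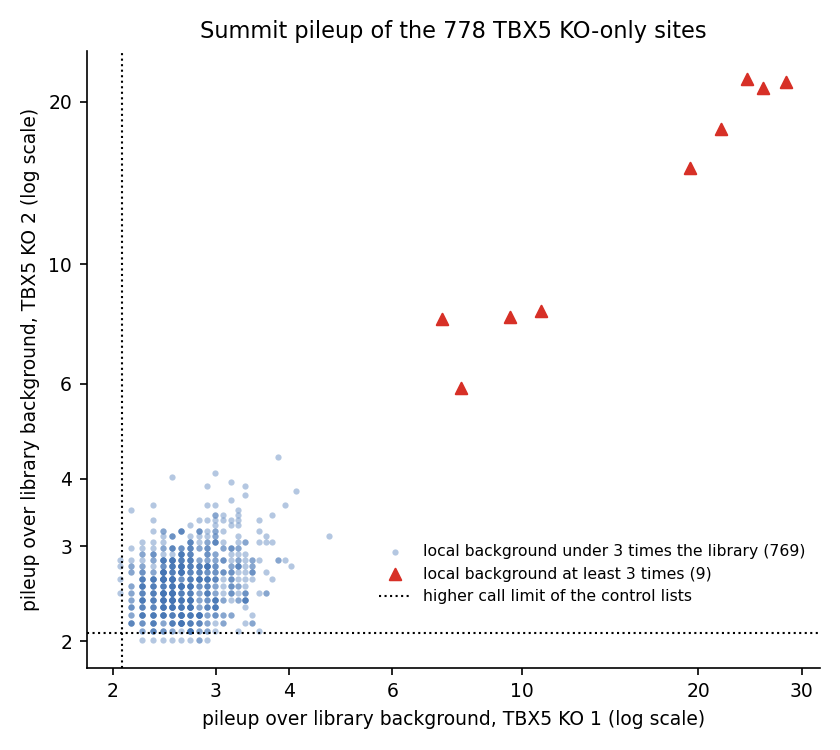
Summit pileup over the library background (ratio, log scales) of the 778 TBX5 KO-only sites in TBX5 KO 1 (x axis) and TBX5 KO 2 (y axis); each point is 1 site, red triangles are sites with a local background of at least 3 times the library background, and dotted lines mark the higher control call limit of 2.08. The 769 blue sites form a cloud close to the limit, with medians near 2.62 and 2.54, and the 9 red sites stand apart at high pileup in both libraries.

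In the full lists, TBX5 KO-only sites were fewer than the sites shared by 1 library of each group in 3 of the 4 such pairs, and about as many as in the other. There were 778 autosomal sites with calls in TBX5 KO alone. Among the patterns that pair 1 TBX5 KO library with 1 control library, the counts were 1529 for TBX5 KO 1 with control 1, 739 for TBX5 KO 1 with control 2, 2720 for TBX5 KO 2 with control 1 and 1467 for TBX5 KO 2 with control 2. The pattern of both control libraries without TBX5 KO held 16698 sites. With each list shortened to its 61173 strongest peaks, the order was different, with 2293 TBX5 KO-only sites, 1020 to 1603 sites in the mixed pairs and 6936 control-only sites. The TBX5 KO-only count thus moved with the length of the lists. The shortened lists did not simply add sites, since 581 of the 778 sites overlapped 1 of the 2293, which is 74.7% of the 778 and 25.3% of the 2293.

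**Figure D2:**
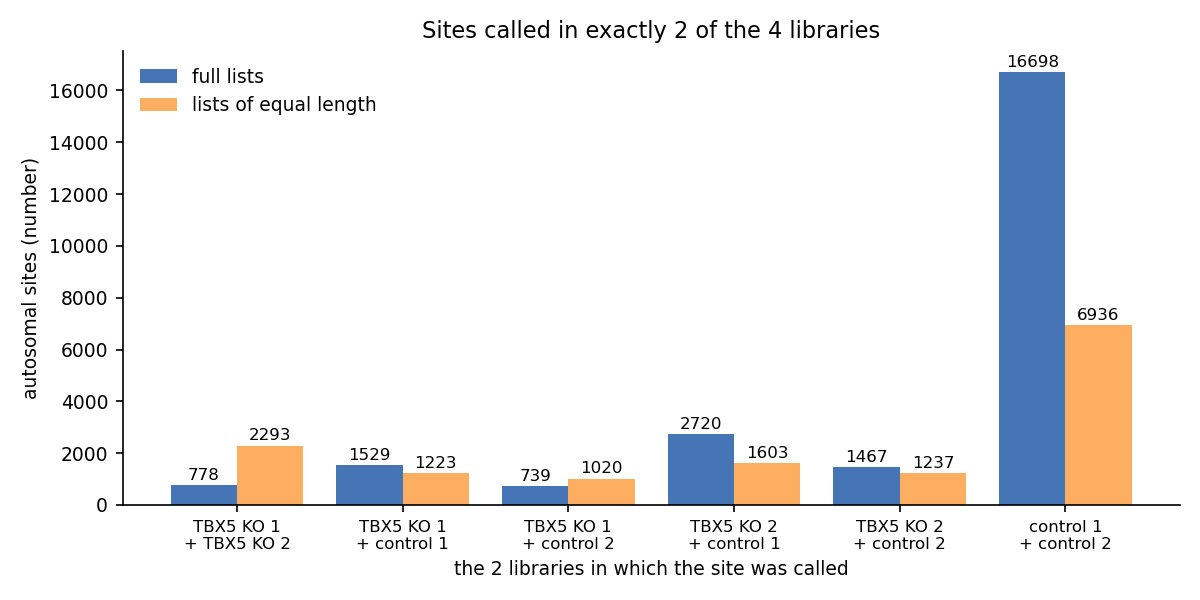
Number of autosomal sites (y axis) called in exactly 2 of the 4 libraries, for each pair of libraries (x axis), in the full lists (blue) and in lists of equal length (orange). In the full lists the TBX5 KO pair (778) lies within the range of the mixed pairs (739 to 2720), and in lists of equal length it lies above them (2293 against 1020 to 1603).

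In strength the TBX5 KO-only sites were close to the mixed pairs. The mixed pairs had a median percentile of 20.2 in TBX5 KO 1 and 22.5 in TBX5 KO 2, close to the 21.9 and 26.2 of the TBX5 KO-only sites. Their median pileup over background was 2.62 in TBX5 KO 1 and 2.46 in TBX5 KO 2. Where 1 control library had also called the site, its control pileup was the higher one more often than not. At the 1283 sites called in both TBX5 KO libraries and control 1, the medians were 2.81 and 2.69 in TBX5 KO, against 3.07 in control 1, and the TBX5 KO mean was higher at 25.95% of the sites. At the 572 sites called in both TBX5 KO libraries and control 2, they were 2.81 and 2.61 in TBX5 KO, against 2.92 in control 2, and the TBX5 KO mean was higher at 30.8%.

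Many TBX5 KO-only sites lay beside a control peak. The nearest control peak was at a median distance of 1753 bp. It was within 1 kb at 283 sites (36.4%, 95% Wilson interval 33.1% to 39.8%) and within 10 kb at 644 (82.8%), while 134 sites (17.2%) had none within 10 kb and 7 had none within 100 kb. In the mixed pairs, the nearest peak of a library without the call was within 1 kb at 37.5% to 42.6% of sites, a range that the share of the TBX5 KO-only sites lies just under. For the control-only sites the nearest TBX5 KO peak was that close at 21.0%. The TBX5 KO lists are shorter than the control lists, and a shorter list has fewer peaks nearby, so the 21.0% and the 36.4% are not directly comparable. Intervals of shares, here and below, cover counting error only. Of the 283 flanking sites, 125 (44.2%) were next to a site called in all 4 libraries, 97 (34.3%) next to a site of control libraries alone and 61 (21.6%) next to a site with some libraries of each group. Among all autosomal sites, 37678 were called in all 4 libraries. Control 1 alone had 20430, control 2 alone 13210 and both control libraries alone 16698. The patterns with some libraries of each group held 572 to 8657 sites each. Shares of these classes over all sites are not given, so the shares of the flanking sites are a description only. The neighbouring control peaks of the 283 sites had a median percentile of 41.6 in their list.

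The edge of the definition is a matter of a few bases at some sites. Just inside it were a site at Camkk2 and Anapc5 (chr5:122786733-122787248) with a control 1 peak 4 bp away, sites at Phldb2 and Fign with a control 1 peak 6 bp away, and sites at Denn2b and Itpr1 with a control peak 7 bp away. Just outside it were sites that a control peak overlapped by 5, 7, 8, 19 and 19 bp. Overlaps of up to 50 bp removed 20 sites, and overlaps of up to 100 bp removed 44. By strength, the weakest members had a −log10 q of 1.31 and 1.34 in the TBX5 KO lists. The weakest control peaks that kept a site out had 1.34 in control 1 and 1.40 in control 2, and 44 and 31 such control peaks were under 2.

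TBX5 KO-only sites were mostly inside genes and seldom at their ends. The distance to an end of a protein-coding gene was at most 1 kb at 65 sites (8.36%, 6.61% to 10.51%), 429 (55.1%, 51.6% to 58.6%) were inside a gene away from its ends, and 284 (36.5%, 33.2% to 40.0%) were outside genes. The gene table holds no exons, introns or UTRs, so places within a gene are not divided further. The mixed pairs had 5.95% to 8.86% at gene ends, 60.7% to 62.3% inside and 29.3% to 32.3% outside. The share outside genes was thus higher in the TBX5 KO-only sites than in each mixed pair, with an interval that overlapped those of 2 of the 4 pairs. The share inside genes was lower than in each, with an interval that overlapped that of 1 of the 4. Sites called in both TBX5 KO libraries and 1 control library had similar places. With control 1, 34.8% were outside genes and 54.6% inside, and with control 2, 34.1% and 58.9%. Their intervals overlapped those of the TBX5 KO-only sites, so this place was not particular to them. Sites called in all 4 libraries had 30.4% at gene ends. Of the 284 sites outside protein-coding genes, 53 (18.7%) lay in an annotated non-coding gene.

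**Figure D3:**
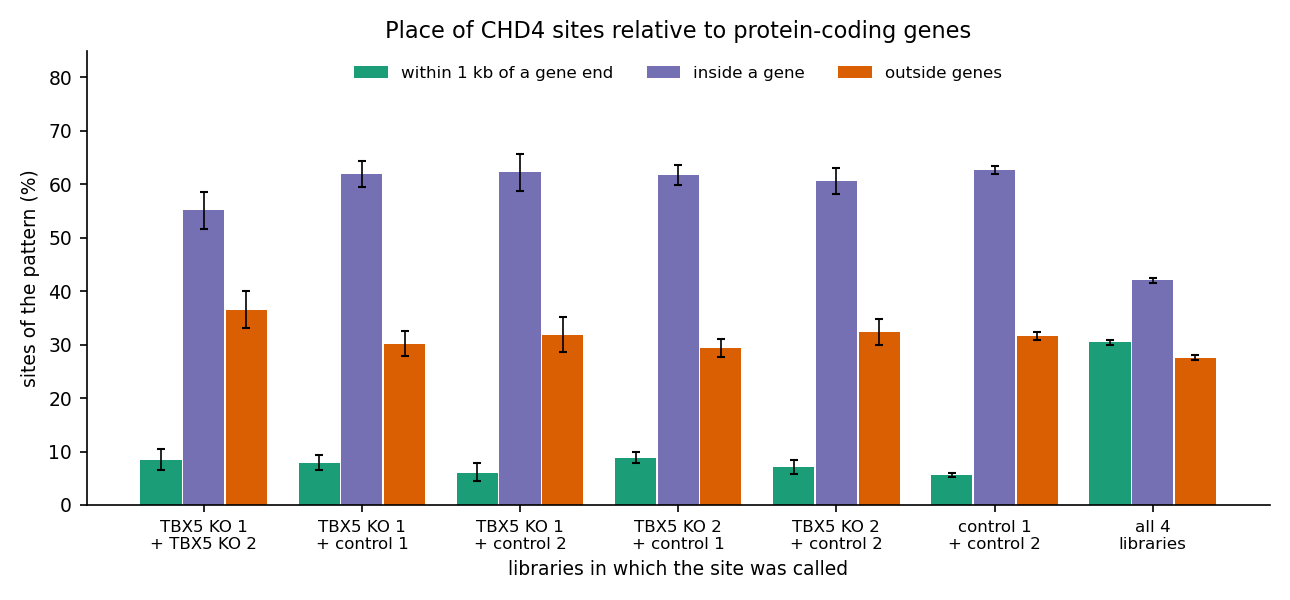
Share of sites (%, y axis) within 1 kb of a protein-coding gene end (green), inside a gene (purple) and outside genes (orange) for each pair of libraries and for all 4 libraries (x axis), with 95% Wilson intervals for counting error as bars. The TBX5 KO-only sites (leftmost) had 55.1% inside genes and 36.5% outside, and the sites of all 4 libraries (rightmost) had 30.4% at gene ends.

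Promoter windows were met at 4.50% of the TBX5 KO-only sites, against 3.15% of the mixed pairs together, with 2.17% to 3.86% in single pairs. The share was 1.88% in the control-only pattern and 25.9% in the pattern of all 4 libraries. For sites called in both TBX5 KO libraries and 1 control library the promoter share is not given. At gene ends those sites had 10.6% with control 1 and 6.99% with control 2. The 39 windows of the TBX5 KO-only sites had a median GC content of 57.7% and 11 CpG. The mixed pairs together had 54.3% and 8, the control-only sites 51.3% and 6, and the sites of all 4 libraries 61.7% and 21. Windows at TBX5 KO-only sites were thus between those of the joined mixed pairs and those of the sites called everywhere, in a set of 39 that was not tested. Single mixed pairs varied. TBX5 KO 2 with control 1 had a higher CpG median, 13.5 over 102 windows, with 55.8% GC. TBX5 KO 1 with control 1 had 56.7% GC and 8 CpG.

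The strongest TBX5 KO-only site lay at chr2:119845859-119846335, with no protein-coding gene within 10 kb. It had 41 fragments in TBX5 KO 1 (95% Poisson interval 29.4 to 55.6, counting error only) and 59 in TBX5 KO 2 (44.9 to 76.1), folds of 3.42 and 4.16 and percentiles of 68.0 and 81.2. A control 2 peak was 395 bp away. The second, chr12:13698827-13699509, was also outside genes and had 44 and 51 fragments, and the nearest control peak lay 369507 bp away. These sites show both ends of the range, the first on the flank of a control peak and the second in a stretch where control had none.

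Among sites near genes, the one at the promoter of Kcnh6 (chr11:106007851-106008217), printed above, was the strongest. It had 50 fragments in TBX5 KO 1 (37.1 to 65.9) and 42 in TBX5 KO 2 (30.3 to 56.8), with folds of 4.36 and 2.98 and percentiles of 81.0 and 59.6. The site is also within 10 kb of Ace3, a homologue of the angiotensin-converting enzyme gene, and the nearest control peak was 5447 bp away. At the promoter of Khdrbs2 (chr1:32172478-32172872) there were 34 and 49 fragments, with folds of 2.98 and 3.47. No other TBX5 KO-only site was farther from a control peak, which lay 885083 bp away.

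Outside Sfi1, the next strongest sites near genes had fewer fragments than that of Kcnh6 in TBX5 KO 1. Ehd3, which encodes an ATPase of endocytic recycling, had a site with 38 and 45 fragments (chr17:73836398-73836864), 529 bp from a control 2 peak. Acvr1b, which encodes the type I activin receptor ALK4, had 31 and 52 fragments 802 bp from an end of the gene (chr15:101212417-101212882), and the control 1 peak was 841 bp away. Kcnb2, which encodes a delayed rectifier potassium channel, had 35 and 41 fragments at a gene end (chr1:15286526-15287035), 159618 bp from a control peak. Sites at Sntg2, a syntrophin gene, Crb2, a cell polarity gene, Ccbe1, a gene of lymphatic growth, and Adgrd1, an adhesion receptor gene, had 32 to 41 fragments in TBX5 KO 1 and 38 to 46 in TBX5 KO 2. Stxbp2 had 30 and 41 fragments, Plekhh1 29 and 40, and a gene end at 1700016K19Rik 35 and 40. At each of these sites except that of Sntg2, TBX5 KO 2, the library with the higher background, had more fragments.

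A small group of TBX5 KO-only sites sat in very high local background. At 9 of the 778 sites (1.16%, 0.610% to 2.18%) the local background was at least 3 times that of the library, in both TBX5 KO libraries, and the same 9 were found at 2 times. Over all peaks of a list, the share in such background was 0.0719% and 0.0618% in the TBX5 KO lists, against 0.0250% and 0.0415% in the control lists. The mixed pairs had 0 to 2 such sites each and the control-only pattern had 0. Other patterns with TBX5 KO calls held such sites too. There were 9 (0.230%) in TBX5 KO 1 alone and 8 (0.132%) in TBX5 KO 2 alone. Sites of both TBX5 KO libraries and control 1 had 5 (0.390%, 0.167% to 0.909%), an interval that overlaps that of the TBX5 KO-only sites. Most of the 9 TBX5 KO-only sites are at 1 locus, and the interval treats them as separate. Of all 76 autosomal sites in high local background, 9 (11.8%) were TBX5 KO-only and 35 (46.1%) were called in all 4 libraries. Outside these 9, the local background was under 2 times that of the library in both TBX5 KO lists, and at 280 sites (36.0%) it equalled the library value in both lists.

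Sfi1, which encodes a centrin-binding protein of the centrosome, held 7 of the 9 sites (chr11:3132668-3199317). Their pileups were 84 to 302 fragments in TBX5 KO 1 and 79 to 292 in TBX5 KO 2, over a local background of 4.56 to 19.6 and 3.65 to 15.1 times the library. Their folds over that local background were low, 1.32 to 2.05 and 1.27 to 2.11. The locus had peaks in every library, with 17 and 24 in TBX5 KO, against 7 and 10 in control. Its highest local background was 21.8 and 15.2 times the library in TBX5 KO, against 10.8 and 12.4 times in control. The median fold of its peaks was 1.44 and 1.57 in TBX5 KO, against 1.99 and 2.06 in control. High background was thus present at Sfi1 in both groups, and its part in the calls was not tested.

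**Figure D4:**
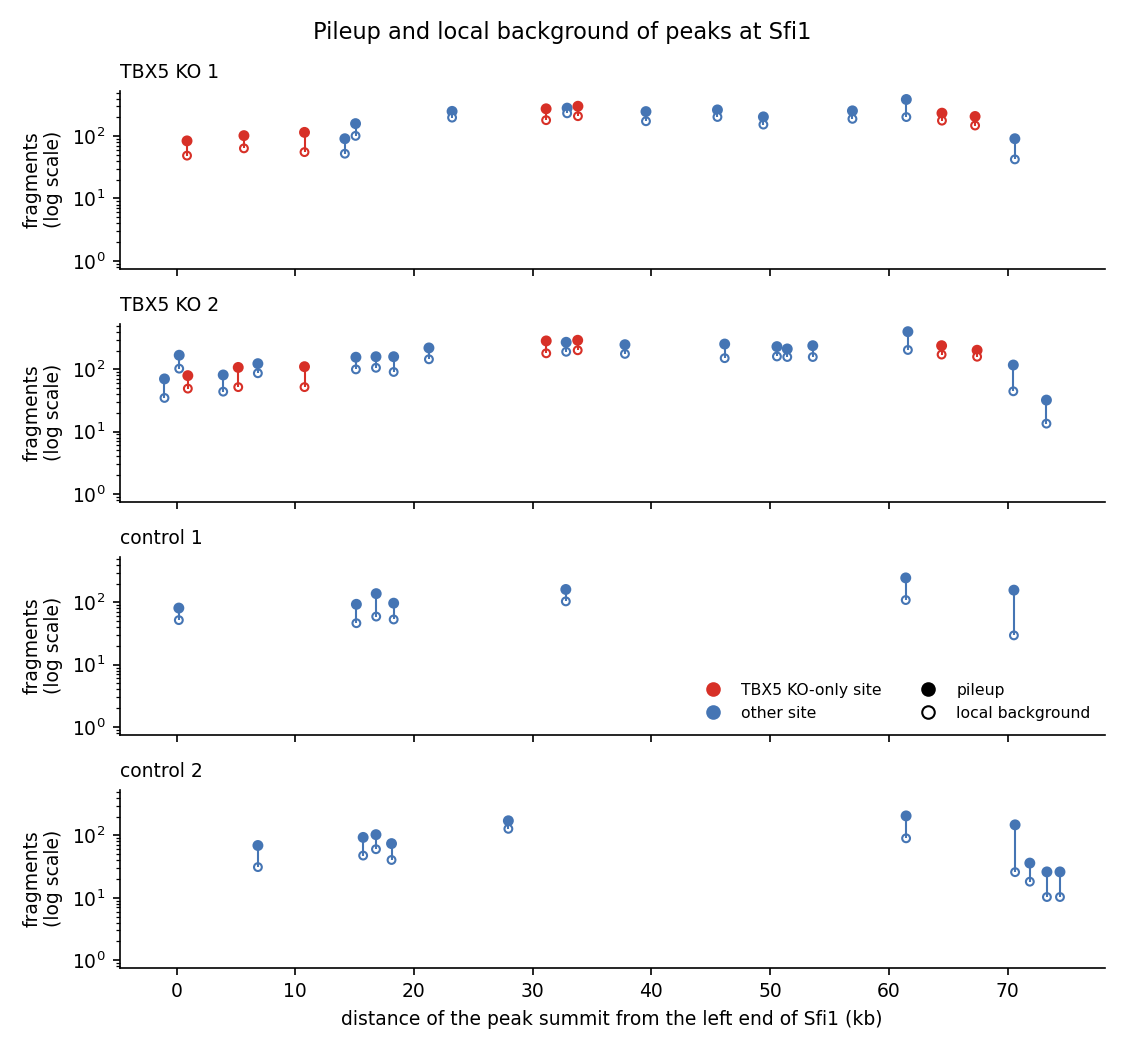
Summit pileup (filled) and local background (open) in fragments (log scale, y axes) of every peak at Sfi1 by distance of the summit from the left end of the gene (kb, x axis), in TBX5 KO 1, TBX5 KO 2, control 1 and control 2 from top to bottom; red peaks belong to TBX5 KO-only sites. The TBX5 KO libraries have 17 and 24 peaks with a high background throughout most of the locus, and the control libraries have 7 and 10, also with a high background at most of them.

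The other 2 sites in high background were at chr15:75085567-75085849, with no protein-coding gene within 10 kb, and at chr1:88265126-88265590. The first had 259 and 296 fragments over a local background of 17.9 and 15.6 times the library, with folds of 1.36 and 1.41. The second lay near Mroh2a and Hjurp, a gene of a centromeric histone chaperone, and had 78 and 106 fragments over 4.15 and 4.02 times the library. Both resembled the Sfi1 sites in having many fragments and a low fold. Without the 9 sites, the mean of the 2 library median percentiles was 23.9 and the share at gene ends 8.32%.

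TBX5 KO-only sites were spread thinly over genes. Within 10 kb of a protein-coding gene lay 566 sites, and 627 of the 20665 autosomal protein-coding genes (3.03%) had at least 1, which is 3.98% of the 15754 genes with any site. Of these genes 579 had 1 site, 32 had 2, 12 had 3, 3 had 4 and Sfi1 had 7. The genes with 4 were Nav2, Plod2 and Sipa1l1. Plod2, which encodes a lysyl hydroxylase that prepares collagen for cross-linking, had 4 TBX5 KO-only sites among its 16, with 5 called in all 4 libraries and 0 control-only. Those 4 had 26 to 32 fragments in TBX5 KO 1 and 31 to 44 in TBX5 KO 2. Sipa1l1, which encodes a GTPase-activating protein for Rap, had 4 of 38, with 24 to 37 and 30 to 41 fragments. Nav2, which encodes a neuron navigator protein, had 4 of 99 and differed from both in holding 19 control-only sites.

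The 12 genes with 3 TBX5 KO-only sites were Resf1, Rad51b, Tnfaip8, Actn1, Bicc1, Tesc, Wipf1, Ldah, Ptk2b, Pxylp1, Eln and Shroom3. Resf1, a gene of retroelement silencing, had 3 of 19, with 30 to 39 fragments in TBX5 KO 1 and 33 to 41 in TBX5 KO 2. Eln, which encodes elastin of the arterial wall and other elastic tissue, had 3 of 26, with 26 to 31 and 30 to 34 fragments. Wipf1, a gene of actin assembly, had 3 of 33, Ptk2b, the gene of the kinase PYK2, had 3 of 16, and Actn1, the gene of non-muscle alpha-actinin, had 3 of 29. Like Plod2, these 5 genes and Sfi1 had 0 control-only sites, which made 7 of the 16 genes with 3 or more. The share of all genes without a control-only site is not given here, so that count has no base to be read against. Genes with many sites have more chances to hold 1 of each kind, and no test was made over genes picked by their TBX5 KO-only sites.

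Some of these sites were neighbours in the genome. With gaps of up to 50 kb, 18 runs of at least 3 TBX5 KO-only sites held 59 sites, 74 more were in pairs and 645 stood alone. Runs of the other patterns are not given, so these counts do not show whether TBX5 KO-only sites cluster more than others. At Plod2 the run spanned chr9:92546346-92611157 and held 4 of the 11 sites there. At Sipa1l1 (chr12:82253943-82266151) and at Tesc (chr5:118028868-118052507), a gene of a calcium-binding protein, each of the 3 sites in the run was TBX5 KO-only, with no control peak between them. At Eln the run (chr5:134702899-134731975) held 3 of 17 sites, 4 of the others being called in all 4 libraries. Runs of this kind therefore lay both among sites shared by all libraries and with no control peak between their members. Control peaks could still be near, since a control 1 peak lay 420 bp from a member of the Tesc run.

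Among chromosomes, 12 held the largest share. TBX5 KO-only sites were 59 of the 1670 sites called in both TBX5 KO libraries there (3.53%, 2.75% to 4.53%), against 1.93% over all autosomes. The next were chromosome 13 with 2.62% and chromosome 10 with 2.36%, and the lowest was chromosome 8 with 1.47%. Chromosome 12 held 7.58% of the TBX5 KO-only sites, 4.15% of the mixed-pair sites and 4.18% of all autosomal sites. In blocks of 5 Mb the median was 1 TBX5 KO-only site over 497 blocks, 170 blocks had 0, and the highest count was 11, reached in a pair of blocks on chromosome 12. These blocks were 5 to 10 Mb, with 11 of 233 sites, and 80 to 85 Mb, with 11 of 602. Chromosome 12 was singled out after its value was seen.

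The gene lists of the cardiomyocyte programme held between 0 and 2 TBX5 KO-only sites each. Over all autosomal sites within 10 kb of a protein-coding gene, 566 of 95667 (0.592%) were TBX5 KO-only. At the 23 genes of atrial identity the count was 0 of 416 sites, which allows a share of up to 0.721%. At calcium handling genes it was 0 of 687 (up to 0.437%, the lowest of these limits and below 0.592%), at ion channel and conduction genes 0 of 280 (up to 1.07%) and at oxidative metabolism genes 0 of 237 (up to 1.27%). These limits count every site of a list, also control-only sites, which cannot be TBX5 KO-only. Control-only sites were 165 of the 687 at calcium handling genes and 131 of the 416 at atrial identity genes, against 13.9% of all autosomal sites. Sites called in all 4 libraries were 113 and 75 there. Sarcomere genes had 1 of 297, at Mybpc3, which encodes cardiac myosin-binding protein C, and cardiac transcription factor genes had 1 of 422, at Meis1. The Mybpc3 site had 27 and 34 fragments and lay 224 bp from a control peak, and the Meis1 site had 25 and 33 fragments and lay 1006 bp from one.

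Together 6 lists of cardiomyocyte genes (atrial identity, ventricular identity, calcium handling, ion channels and conduction, sarcomere and oxidative metabolism, 97 genes) had 3 TBX5 KO-only sites of 1832 (0.164%, 0.0557% to 0.480%). Those 3 were the Mybpc3 site and sites at Irx5 and Lbh, a homeobox gene and a transcription cofactor gene of the ventricular list. That list had 2 of 75 sites (2.67%, 0.734% to 9.21%), the highest share of the 25 lists, from the fewest sites of the 6. The share of the 6 lists together was below the 0.592% over sites near all genes. Of the single lists, the interval of calcium handling alone lay wholly below that value, and that of ventricular identity alone lay wholly above it. The joined share thus covers lists that went in opposite directions. Mixed-pair sites were also less frequent in the 6 lists together, at 3.06% of their sites and 5.36% of all sites near genes. The shares count all sites of these lists, control-only sites included. They do not show how often a site called in both TBX5 KO libraries was TBX5 KO-only. The lists were joined with their values known, and the difference was not tested.

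Over all 25 lists, 15 had 0 TBX5 KO-only sites, 6 had 1 and 4 had 2 or 3. At least 1 site was at 16 of the 353 listed genes in the table (4.53%), against 3.03% of all autosomal protein-coding genes and 3.98% of those with any site. Genes of the NuRD complex itself had 0 of 123 sites (up to 2.44%). Genes that mark other cells of the atria had 0 of 175 sites at fibroblast genes (up to 1.71%), 0 of 119 at smooth muscle and pericyte genes (up to 2.52%) and 2 of 243 (0.823%, 0.226% to 2.95%) at endothelial genes, and the intervals of these 3 lists include the 0.592% of all sites near genes. The endothelial sites were at Tek, the gene of the angiopoietin receptor TIE2, with 25 and 35 fragments, and at Erg, an ETS factor gene, with 27 and 33. The skeletal muscle programme, which CHD4 is known to restrain in the heart, had 0 of 72 sites (up to 4.17%). Epicardial, adipocyte, erythroid, interferon, p53, cell cycle and developmental regulator lists had 0 of 11 to 58 sites each, too few to bound a share near the background.

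Genes of 2 signalling pathways had the most, with 3 sites in each list. Genes of the TGF-beta and BMP pathway had 3 of 451 sites (0.665%, 0.227% to 1.94%), at Tgfbr3, the gene of the co-receptor betaglycan, Acvr1, the gene of the type I receptor ALK2, and Ltbp1, the gene of a matrix protein that holds latent TGF-beta. These sites had 23 to 28 fragments in TBX5 KO 1 and 31 to 32 in TBX5 KO 2. Wnt pathway genes had 3 of 294 (1.02%, 0.348% to 2.96%), at the ligand gene Wnt11 and at Tcf7l1 and Tcf7l2, genes of the transcription factors at the end of the pathway, with 24 to 27 and 28 to 34 fragments. Both shares lie near the 0.592% of all sites near genes, and their intervals include it. Single sites were at Ankrd1, a cardiac stress gene, with 26 and 35 fragments, Cd74, an immune gene, with 27 and 37, Syt1, a neuronal gene, with 31 and 33, and B2m, of the housekeeping list, with 27 and 33. As shares of their lists these were 0.952% of 105 sites, 2.5% of 40, 2.13% of 47 and 1.16% of 86, each from 1 site and with an interval that includes 0.592%.

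**Figure D5:**
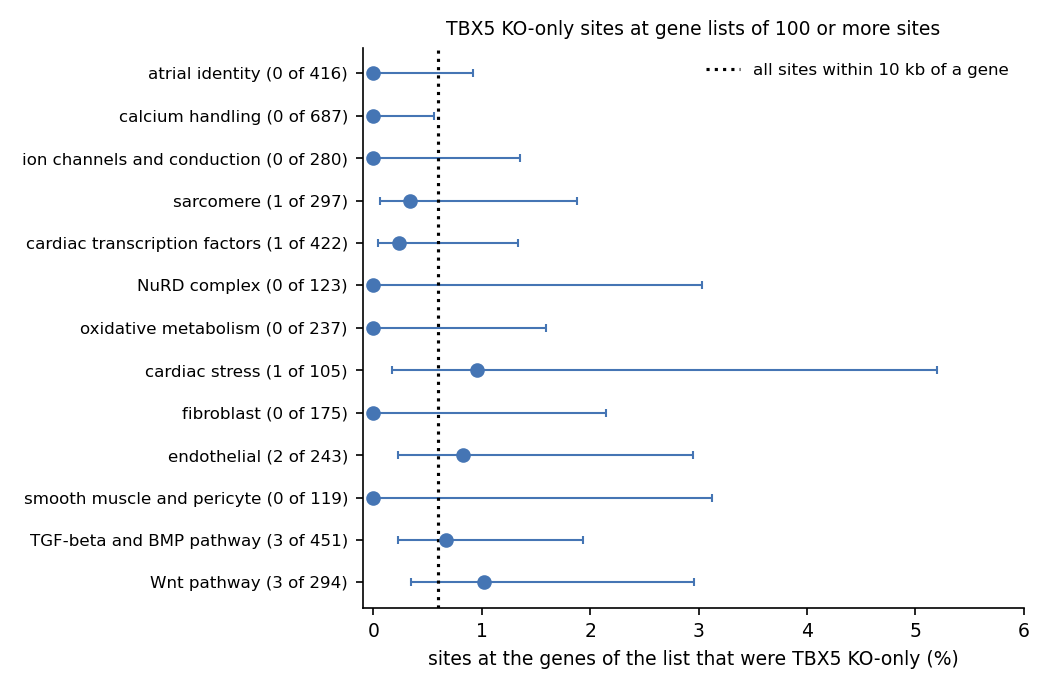
Share of the sites at the genes of a list that were TBX5 KO-only (%, x axis), for each list with at least 100 sites (y axis, with the count in brackets); points are shares, bars are 95% Wilson intervals for counting error and the dotted line is the 0.592% of all sites within 10 kb of a gene. The atrial identity, calcium handling and ion channel lists lie at 0, and the interval of each list shown other than calcium handling includes the dotted line. The ventricular identity list, whose interval lies above 0.592%, has 75 sites and is not shown.

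None of the 10 genes looked up for their role in the comparison held a TBX5 KO-only site. Over all autosomal protein-coding genes 3.03% held at least 1, and 3.98% of those with any site. A count of 0 in 10 genes is near these shares and does not set the 10 genes apart. Tbx5 had 0 of 31 sites, with 10 called in all 4 libraries and 7 control-only, and Chd4 had 0 of 18. Among atrial genes, Ryr2, the calcium release channel gene, had 0 of 190, Bmp10, an atrial growth factor gene, 0 of 11, Gja5, the connexin 40 gene, 0 of 11, and Myl7, the atrial myosin light chain gene, 0 of 5. The natriuretic peptide genes Nppa and Nppb had 0 of 1 and 0 of 3. The cardiac transcription factor genes Gata4 and Nkx2-5 had 0 of 22 and 0 of 16.

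At genes with several TBX5 KO-only sites, the sites that every library called mostly had pileups closer to control than the median site. Over the 37678 sites called in all 4 libraries, the mean TBX5 KO pileup over background divided by the mean control one had a median of 0.646 and an upper quartile of 0.758. At Resf1 the median of that ratio over its 4 shared sites was 0.895, at Wipf1 0.846 over 9, at Sipa1l1 0.804 over 10, at Ptk2b 0.801 over 5 and at Eln 0.776 over 7. Plod2 (0.662) was near the median of all sites, and Actn1 (0.634) and Nav2 (0.562) were below it. The first group was weaker in control, with gene medians of 3.56 to 5.59 and 3.21 to 5.01 times the background. Plod2, Actn1 and Nav2 had 5.54 to 5.93 and 5.35 to 5.94, and all sites called in all 4 libraries had 6.23 and 5.84. Shared sites also had to pass the TBX5 KO call limit, which keeps sites weak in control from low ratios. Strength was not matched in this comparison. Of the 16 genes with 3 or more TBX5 KO-only sites, 14 were above 0.646, and the highest was Sfi1 at 1.03 with 2 shared sites in high background. These ratios come from the same libraries and the same contrast that chose the genes, so they describe the loci and are not a test of them.

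The same was seen around the TBX5 KO-only sites in general. At the 960 sites called in all 4 libraries and within 10 kb of a TBX5 KO-only site, the median pileup over background was 3.74 and 3.73 in TBX5 KO, against 5.34 and 5.16 in control. At the 36697 others it was 3.84 and 3.80 in TBX5 KO, against 6.23 and 5.84 in control. The ratio of TBX5 KO to control was thus 0.684 to 0.735 near TBX5 KO-only sites and 0.614 to 0.674 elsewhere, over the 4 pairs of libraries. The near sites were also weaker, with a median control percentile of 71.6 against 77.7. Compared within 5 bins of control strength, the log2 difference of near minus other sites was 0.06 ± 0.002 in TBX5 KO, against -0.02 ± 0.008 in control (SD, n = 2 each). The bins are of control strength, so they hold the control value small by construction, and it is no independent contrast. The remaining difference was small, and neighbours share their region with the sites that the calls chose, so no test is given.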

How the data were processed

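CHD4 ChIP-seq peak lists of the 4 ChIP libraries were used, each called on 1 library. Per the series design text, ChIP and input reads both entered the lists. No separate analysis of the input libraries was made. The submitters' processing notes name MACS2, DiffBind and the build mm10, without versions. The sources used here do not name the aligner, filters or settings. The deposited fold is the authors' ratio of pileup to local background at the summit, with 1 added to both. Each deposited −log10 p and −log10 q was written by the authors' caller. The deposited score is 10 times −log10 q, truncated, for 99.96% or more of the peaks in a list, and was not used further.

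Whole-number pileups and local backgrounds were solved from fold and −log10 p under a Poisson model. They returned the deposited −log10 p within 0.01 for 99.98% or more of the peaks in every list, and the code was tested on simulated peaks. They count fragments as the caller saw them, so duplicates or scaling before calling would change them. Sites, distances and shares were computed with Python 3.11.15, pandas 2.3.3 and SciPy 1.17.1, and merging was checked against bedtools 2.31.1. Genes and promoter windows came from RefSeq tables of GRCm38.p6, and the gene table gives no strand, so a gene end is either end of a protein-coding gene. A site belongs to each gene whose body plus 10 kb it overlaps. Shares carry 95% Wilson intervals, and a count of 0 allows up to 3 counts.

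Named genes are those of the 10 strongest sites near genes, the 6 strongest at gene ends, the genes with the most sites, the sites of highest local background, list members with a site and 10 fixed genes. Other named genes lie at the edge of the definition or have 3 sites, and were named after their values were seen. The members, gene lists and comparisons were chosen with earlier results of these data known. No result rests on a test, because the calls that would be tested chose the sites. The alternatives were stricter q, lists of equal length, other overlap rules, X and Y kept, each library left out, groups exchanged and other distances.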

Additional observations from a re-analysis of the deposited data

How the results depend on the processing

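The number of TBX5 KO-only sites, 778, depended on how presence and absence were defined. It was 252 at −log10 q of at least 5 in all lists, 2293 in lists of equal length, 3225 with peaks linked by summits within 250 bp and 495 with no control peak within 1 kb. Leaving out 1 library gave 1419 to 7001 (7001 and 4876 without TBX5 KO 1 or 2, 2194 and 1419 without control 1 or 2), and by construction a pattern of 3 libraries is met more often. With the groups exchanged, as the genotype and treatment fields name them, the same pattern held 16698 sites. The other 5 settings gave 520 to 795. The share at gene ends, 8.36%, was 15.1% by summits and 15.3% with ends of 2.5 kb, and 6.91% to 9.57% with 1 library left out. The share in high local background, 1.16%, was 0.523% at equal length, 0.248% by summits and 0.243% to 0.705% with 1 library left out. The share with a control peak within 1 kb, 36.4%, was 29.2% at −log10 q of at least 3 and 25.7% at equal length, both chosen after seeing the data. Except by those constructions, the cause of these moves was not tested. The mean of the 2 library median percentiles was 23.9 to 24.5 and the number of genes 426 to 677 under their alternatives.

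No paired analysis was possible because the results come from no test and no label ties the replicate numbers across the groups. The lists hold no reads at uncalled places, so CHD4 signal in control below the threshold cannot be seen.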
